A study of Mus musculus with 12 samples.

Results

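The 45 genes described here encode the glucose transporters and enzymes of glycolysis, and the lactate-producing enzymes and lactate transporters. They also encode subunits and a kinase of pyruvate dehydrogenase (here pyruvate entry), and enzymes of the tricarboxylic acid (TCA) cycle and the pentose phosphate pathway. They were taken by gene symbol from a count table of 39017 gene identifiers, through the mm10 gene annotation, and all 45 were found and had enough reads to be tested. Glycolysis holds 21 of them, pyruvate entry 5, the TCA cycle 15 and the pentose phosphate pathway 4.

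RNA was sequenced from lymph node CD4+ T cells of SJL mice from a cross in which sex chromosomes and gonads are inherited separately. Y- stands for a Y chromosome without Sry, the gene that directs testis development, and mice labelled Sry carry it as a transgene. The groups are XX and XY-, labelled female, and XXSry and XY-Sry, labelled male, with 3 libraries each. All mice were healthy and gonadectomized at 4 to 6 weeks, by ovariectomy or castration, received carprofen around surgery and amoxicillin in the water afterwards, and gave lymph nodes at 8 to 12 weeks. The cells were enriched by removing other cells with magnetic beads and were cultured with anti-CD3/CD28 beads for 36 hours, so no group is unstimulated and none has its gonads. In every Sry comparison the transgene and the testes carried until surgery go together and cannot be told apart. The labels do not say that the libraries came from separate animals, so p-values reflect only how far these libraries spread, and that spread may be technical.

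Glycolysis splits glucose into pyruvate in the cytosol, with a small yield of ATP. The pentose phosphate pathway branches off to make NADPH and ribose for nucleotides, and the TCA cycle oxidizes acetyl groups from pyruvate in mitochondria. After stimulation, T cells take up more glucose and turn much of it into lactate even when oxygen is present. The series asks about sex chromosome effects, and its design text names only the XX and XY- groups. The groups with Sry allow the same question in the other gonad type and a comparison of Sry itself.

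Total counts per library ran from 11664186 to 16710188, and a member had 32 to 35144 counts in a library. Mitochondrial genes took 5.01% of counts in XX replicate 3, the shallowest library, and 2.27% to 2.87% in each of the other 11. Sry had 0 or 1 count in each library labelled without it and 1349 to 2132 in each labelled with it. The 12 CD4 T cell markers summed to 5405 to 6104 CPM (read counts relative to the TMM-adjusted library total), with Cd4 itself at group means of 835 to 871 CPM. Of the 9 B cell markers found, which summed to 293 to 373 CPM, nearly all of the level was Ighm. The 12 myeloid markers summed to 16.1 to 21.5 CPM, mostly Csf1r (group means of 11.3 to 15.3), with Itgax, S100a8 and S100a9 at 0. The 9 stromal and endothelial markers summed to 80.2 to 127 CPM, nearly all of it Pecam1 (group means of 84.0 to 101). The 8 red cell and platelet markers summed to 0.445 to 0.721 CPM.

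Per exon length, the lactate and glycolysis enzymes held the top of the range in all groups. On the FPKM scale (CPM divided by exon length in kilobases), the 12-library mean level was 562 for Ldha, the main lactate dehydrogenase of these cells, 428 for Aldoa, 390.4 for the pyruvate kinase gene Pkm and 271 for the triose phosphate isomerase gene Tpi1. The TCA cycle genes lay between 16.7 FPKM for Sucla2 and 134 FPKM for Sdhd. Among the pentose phosphate genes, Tkt, the transketolase, was at 85.8 FPKM, Taldo1 at 56.9, G6pdx at 40.4 and Pgd at 33.4. The lowest were Pgam1 at 2.06 FPKM and Gapdh at 4.86 FPKM, and both have near-identical copies that can take their reads. The copies held 47637 counts beside 3604 for Gapdh, but only 74 beside 735 for Pgam1.

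**Figure D1:**
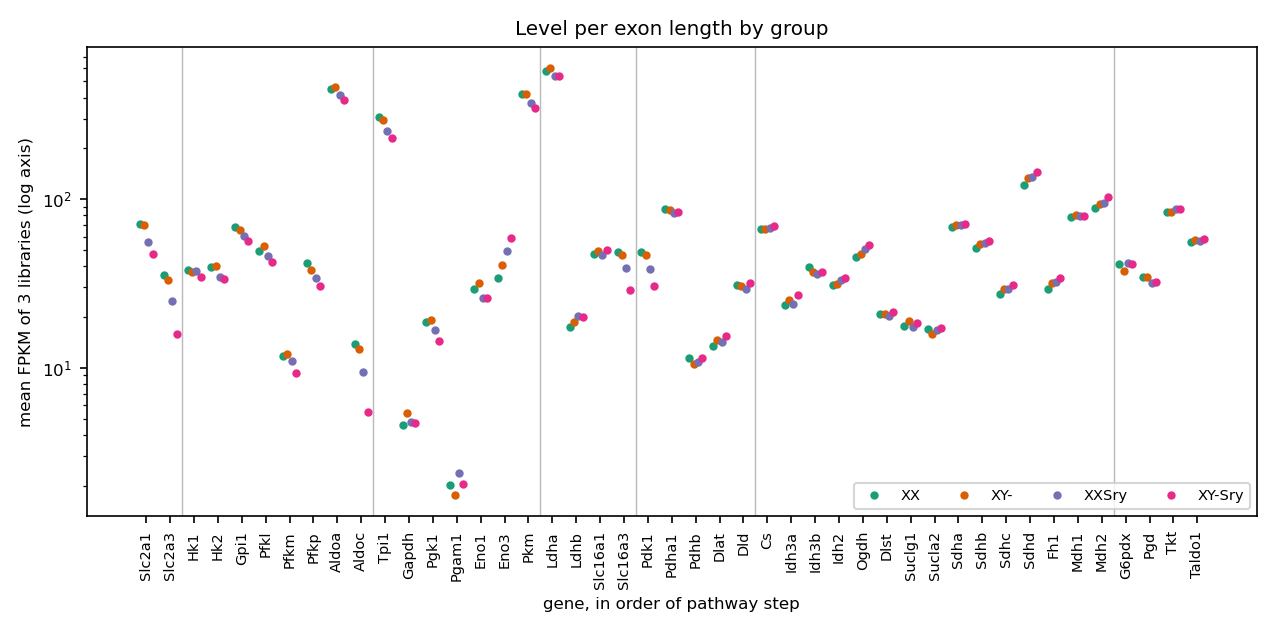
Level per exon length (FPKM, log axis) of each of the 45 genes in the 4 groups, as group means over 3 libraries. Ldha, Aldoa, Pkm and Tpi1 lie highest and Gapdh and Pgam1 lowest in every group.

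Genes of glucose uptake and glycolysis, from the glucose transporters Slc2a1 and Slc2a3 to the lactate exporter Slc16a3, made up 12 of the 13 members that were lower with Sry, with log2 changes from -0.19 to -0.90. Averaged over both sex chromosome types, 15 of the 45 members were called (edgeR quasi-likelihood test, adjusted p under 0.05), 13 lower and 2 higher. Over all 14585 genes tested, 5.44% were called, 3.31% lower and 2.13% higher. The count of called members was 7 without XY- replicate 2 or without XY-Sry replicate 2, 8 without XXSry replicate 2 or XY-Sry replicate 1, and 9 without XXSry replicate 1. In these fits 2.42% to 2.93% of all genes were called. Of the 21 glycolysis genes 12 were lower, 1 was higher and 8 were not called, with a median log2 change of -0.23. Of the 15 TCA cycle genes 1 was higher and 14 were not called (median 0.06), of the 5 pyruvate entry genes 1 was lower, and of the 4 pentose phosphate genes none was called by edgeR or DESeq2, with 1 at an unadjusted p under 0.05 (median 0.04). The median over all genes tested was -0.00. In whole-culture RNA, fewer cells of a type and less RNA per cell cannot be told apart.

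By step, both glucose transporters, 6 of 8 genes from hexokinase to aldolase, 3 of 7 from triose phosphate to pyruvate and 1 of 4 of lactate production and export were lower with Sry. The glycolysis genes together held 0.930% ± 0.052 of a library's counts in XX, 0.838% ± 0.027 with Sry added (XXSry), 0.951% ± 0.053 in XY- and 0.789% ± 0.051 with Sry added (XY-Sry; mean and SD, n = 3). By library the share was 0.871% to 1.01% without Sry and 0.732% to 0.869% with it. The pentose phosphate genes held 0.107% ± 0.001, 0.110% ± 0.002, 0.109% ± 0.001 and 0.111% ± 0.003 in the same order, and the pyruvate entry and TCA cycle genes 0.345% ± 0.014, 0.349% ± 0.009, 0.358% ± 0.004 and 0.359% ± 0.004.

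**Figure D2:**
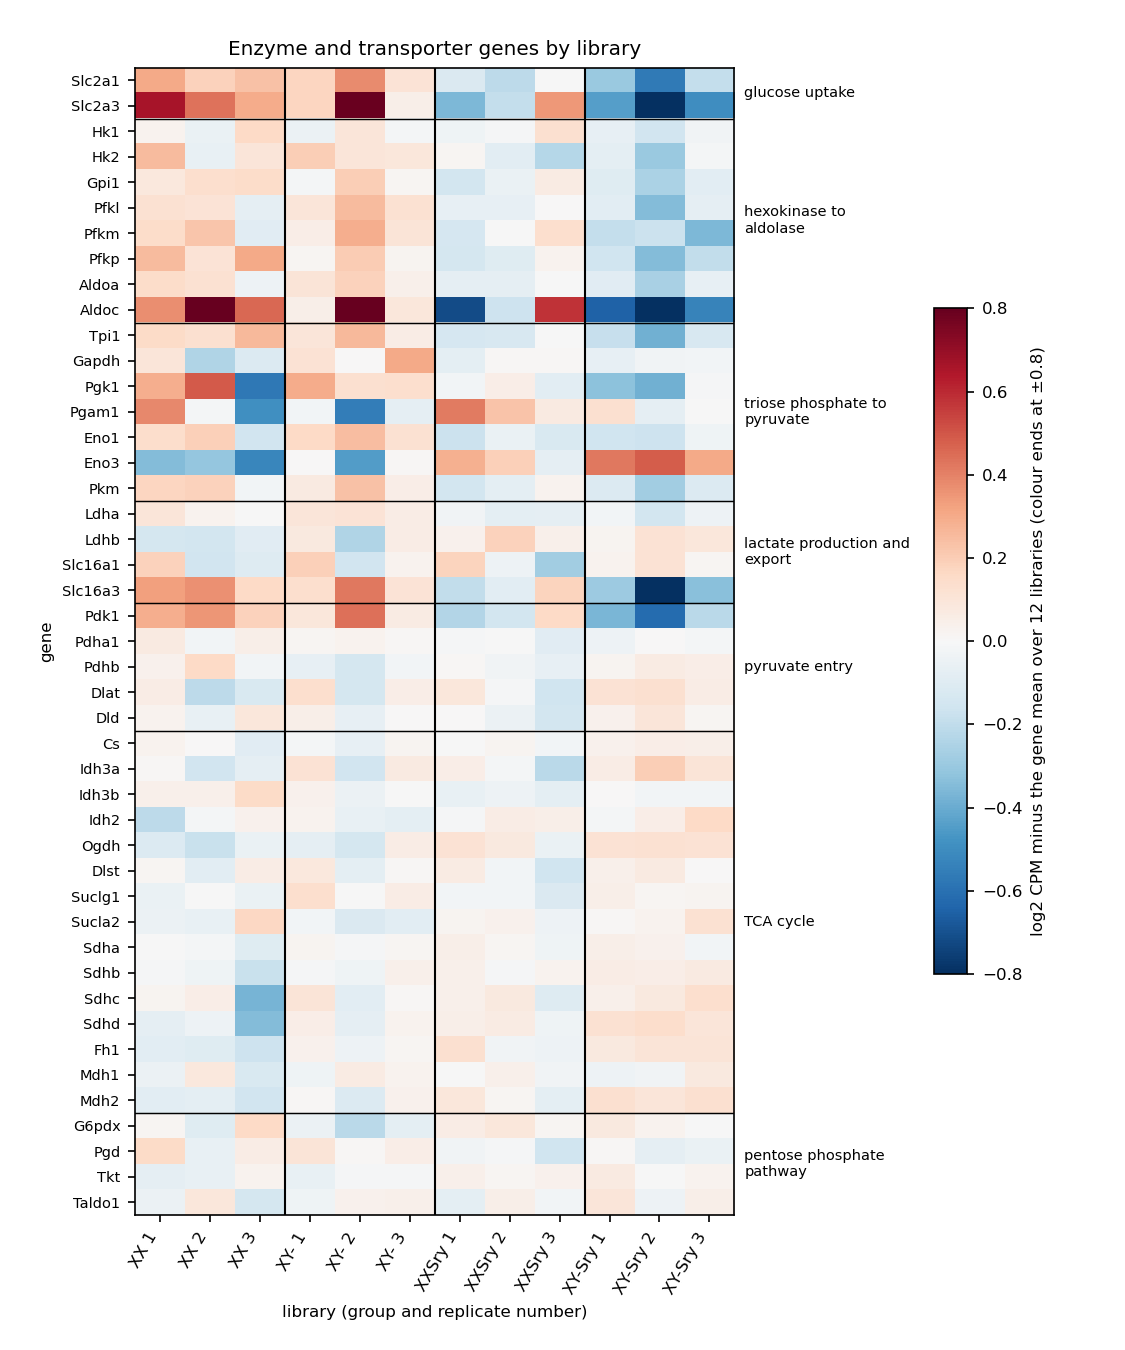
Log2 CPM of each gene minus its mean over the 12 libraries, with genes ordered by step and libraries by group and replicate. Most rows of glucose uptake and upper glycolysis are above their mean in XX and XY- and below it in XXSry and XY-Sry, with XY-Sry replicate 2 lowest and XXSry replicate 3 closer to the groups without Sry.

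**Figure D3:**
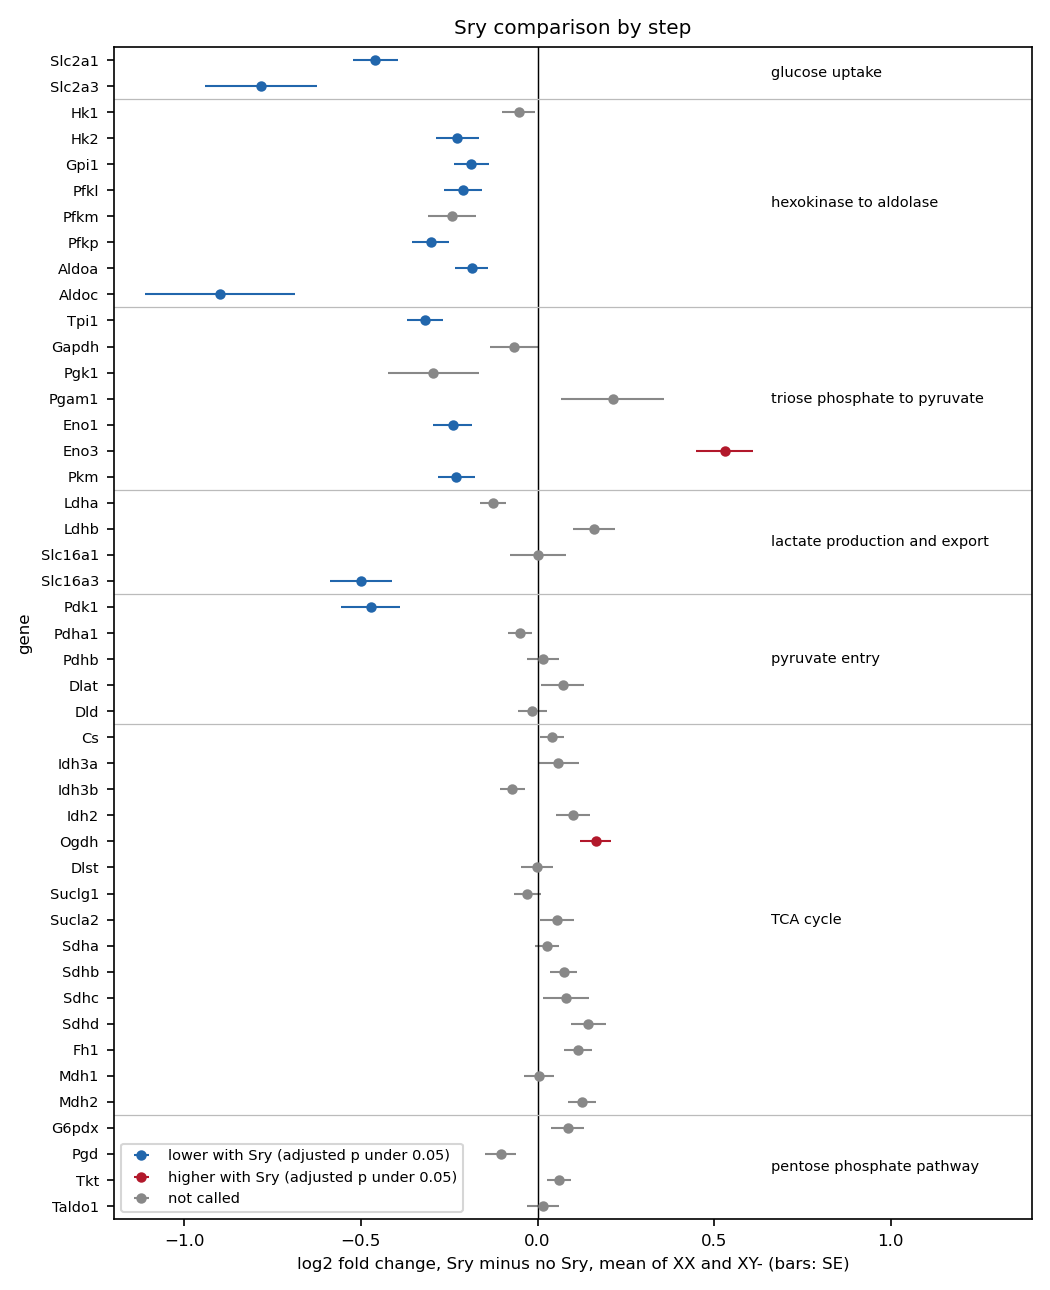
Log2 fold change with Sry (mean of both sex chromosome types, bars are standard errors) by gene and step, with called genes marked. The 13 lower genes are all in glycolysis except Pdk1, and the 2 higher genes are Eno3 and Ogdh.

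Some marker genes of other cells also differed with Sry. Of the 8 CD8 T and NK cell markers 5 were tested, and 2 were lower with Sry, Cd8a (log2 change -1.11, edgeR adjusted p = 0.00373) and Klrk1 (log2 change -1.34, edgeR adjusted p = 0.0172), with Klra8 at 0. Not called were Cd8b1, the other CD8 chain (log2 change 0.15, edgeR adjusted p = 0.239), Eomes (-0.39, 0.18) and Klrd1 (-0.08, 0.923). The list summed to 43.3 to 87.5 CPM over the XX libraries, 55.6 to 72.0 over XY-, 46.6 to 51.9 over XXSry and 48.5 to 59.1 over XY-Sry. Eomes, at group means of 31.9 to 47.4 CPM, held most of this sum, while Cd8a was at 1.87 to 5.18. Of the 12 CD4 T cell markers, Il2ra, an interleukin-2 receptor chain that rises on activation, was lower with Sry (log2 change -0.18, edgeR adjusted p = 0.0202) and Cd5 was higher (log2 change 0.20, edgeR adjusted p = 0.00789). Of the 5 B cell, 3 myeloid and 4 stromal markers tested, edgeR and DESeq2 called 0, and 0 had an unadjusted p under 0.05. In this comparison edgeR called 5.44% of all genes, and 20.99% had an unadjusted p under 0.05. With so few markers tested, the absence of calls says little about the content of these cells. The part of these cells and of activation in the glycolysis result was not tested.

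The promoters of 5 called genes are shown because their genes differed most or opposed each other, and because HIF-1, a transcription factor of the response to low oxygen, is known to act on many glycolysis genes. The core of its binding site is ACGTG or GCGTG. Of the 45 members, 42 (all but Slc2a3, Idh3a and Sdhc) had a window of 300 bases, 250 before and 50 after a start, in the RefSeq table for GRCm38.p6. The core was found on either strand in 81.0% of them, against 46.7% of 27025 genes with a window. These shares are not like for like, because the 27025 were not limited to genes tested here, as all members were. The 42 members also had 60 windows, against 32851 windows for the 27025 genes. The share among tested genes was not computed. Among members with a window, the core was in 10 of 12 that were lower with Sry (83.3%), in 22 of 28 that were not called (78.6%) and in 2 of 2 that were higher. By pathway, 18 of 20 glycolysis genes, 12 of 18 of pyruvate entry and the TCA cycle and 4 of 4 of the pentose phosphate pathway held it. A gene with several windows counts once if any window holds the core. Pdk1 and Aldoc each have another window, not shown, with 0 cores for Pdk1 and 1 for Aldoc. A match describes these letters and is not a binding site. Capitals mark the core on either strand, and none of the 5 windows holds CACGTG, in which the core would overlap itself.
Slc2a1, chr4:119108495-119108794, + strand: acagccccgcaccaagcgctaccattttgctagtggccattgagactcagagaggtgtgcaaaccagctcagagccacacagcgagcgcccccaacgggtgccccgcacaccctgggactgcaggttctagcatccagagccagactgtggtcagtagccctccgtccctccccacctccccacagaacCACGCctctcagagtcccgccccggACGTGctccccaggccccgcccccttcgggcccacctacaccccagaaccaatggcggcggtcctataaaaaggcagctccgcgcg
Slc16a3, chr11:120948817-120949116, + strand: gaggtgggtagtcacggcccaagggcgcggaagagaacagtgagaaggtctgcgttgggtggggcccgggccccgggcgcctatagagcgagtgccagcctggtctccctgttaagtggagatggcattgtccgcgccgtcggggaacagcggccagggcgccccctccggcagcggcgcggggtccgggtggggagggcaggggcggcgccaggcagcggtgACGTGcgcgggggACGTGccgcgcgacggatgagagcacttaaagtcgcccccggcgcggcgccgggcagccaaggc
Pdk1, chr2:71872974-71873273, + strand: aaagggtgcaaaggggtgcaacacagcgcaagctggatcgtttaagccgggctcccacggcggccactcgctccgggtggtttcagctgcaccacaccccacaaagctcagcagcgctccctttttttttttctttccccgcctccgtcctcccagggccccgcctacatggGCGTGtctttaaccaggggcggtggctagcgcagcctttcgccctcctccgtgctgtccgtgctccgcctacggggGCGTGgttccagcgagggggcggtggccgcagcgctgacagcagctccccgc
Aldoc, chr11:78322823-78323122, + strand: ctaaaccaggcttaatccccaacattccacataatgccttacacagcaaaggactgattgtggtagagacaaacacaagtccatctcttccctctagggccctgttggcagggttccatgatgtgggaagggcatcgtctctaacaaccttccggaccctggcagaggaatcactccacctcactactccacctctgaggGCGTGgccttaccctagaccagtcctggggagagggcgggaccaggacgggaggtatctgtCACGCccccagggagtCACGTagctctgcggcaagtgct
Eno3, chr11:70656926-70657225, + strand: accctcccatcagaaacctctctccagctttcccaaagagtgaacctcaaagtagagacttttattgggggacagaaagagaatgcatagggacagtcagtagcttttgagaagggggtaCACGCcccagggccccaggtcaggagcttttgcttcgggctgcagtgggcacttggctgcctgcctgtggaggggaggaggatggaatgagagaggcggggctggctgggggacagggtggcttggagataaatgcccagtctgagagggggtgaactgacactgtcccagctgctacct

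Slc2a1 encodes GLUT1, a glucose transporter of proliferating cells (chromosome 4, 119108711 to 119137983, mm10). Its level was 261, 240.5 and 249 CPM for XX, 239, 275 and 228 for XY-, 195, 183 and 211 for XXSry and 172, 143 and 186 for XY-Sry. Every library with Sry lay below every library without it (mean 250.4 ± 10.4, 247 ± 24.9, 196 ± 14.02 and 167 ± 21.8 CPM, SD, n = 3; log2 change -0.46 ± 0.06, edgeR adjusted p = 0.0013). Slc2a3 encodes GLUT3, a glucose transporter with high affinity (chromosome 6, 122727809 to 122801640). It was at 291, 249 and 226 CPM for XX, 208, 319.9 and 191 for XY-, 144, 161 and 235 for XXSry and 136, 77.5 and 131 for XY-Sry. XXSry replicate 3 lay among the libraries without Sry and XY- replicate 2 was the highest of all, so the groups overlapped, and the difference passed the test (log2 change -0.78 ± 0.16, edgeR adjusted p = 0.0107).

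Between hexokinase and aldolase, the 3 called genes with the largest change were those of aldolase C, platelet-type phosphofructokinase and hexokinase 2. Aldoc (chromosome 11, 78322968 to 78327781) encodes an aldolase best known from brain and was at 39.8, 54.2 and 42.4 CPM for XX, 31.8, 61.9 and 32.8 for XY-, 18.7, 27.5 and 45.96 for XXSry and 19.6, 12.5 and 21.3 for XY-Sry. XY-Sry was low throughout, and XXSry replicate 3 and XY- replicate 2 stood above the other libraries of their groups (log2 change -0.90 ± 0.21, edgeR adjusted p = 0.0236). Pfkp (chromosome 13, 6579768 to 6648777), which encodes a subunit of phosphofructokinase, the committed step of glycolysis, was at 572, 517 and 591 CPM for XX, 484, 551 and 488 for XY-, 435, 449 and 489.9 for XXSry and 428, 377 and 419 for XY-Sry. XXSry replicate 3 overlapped the lowest XY- libraries, and XX held the highest library (log2 change -0.30 ± 0.05, edgeR adjusted p = 0.00444). Hk2 (chromosome 6, 82725025 to 82774454), the inducible hexokinase that traps glucose in the cell, was at 262, 211 and 236 CPM for XX, 252, 236 and 234 for XY-, 222, 207 and 188 for XXSry and 209, 179 and 217 for XY-Sry, with overlap between the groups (log2 change -0.23 ± 0.06, edgeR adjusted p = 0.0447).

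The other called genes of these steps changed less. Pfkl, another phosphofructokinase subunit, was at 344, 340.4 and 300.3 CPM for XX, 338, 376 and 343 for XY-, 302, 301 and 317 for XXSry and 297, 248 and 301 for XY-Sry (log2 change -0.21 ± 0.05, edgeR adjusted p = 0.0344). Gpi1, glucose-6-phosphate isomerase, was at 427, 443 and 447 CPM for XX, 399.6, 462 and 408 for XY-, 364, 388 and 423 for XXSry and 377, 339 and 381 for XY-Sry (log2 change -0.19 ± 0.05, edgeR adjusted p = 0.0399). Aldoa, the main aldolase of these cells by level per length, was at 1374, 1353 and 1208 CPM for XX, 1336, 1411 and 1278 for XY-, 1183, 1181 and 1240.3 for XXSry and 1166, 1039 and 1188 for XY-Sry (log2 change -0.19 ± 0.05, edgeR adjusted p = 0.0316). In all 3 the highest library was without Sry, the lowest was XY-Sry replicate 2, and the groups overlapped. Hk1, the constitutive hexokinase, was not called (log2 change -0.05 ± 0.05, edgeR adjusted p = 0.562), and Pfkm, the muscle-type subunit, was called by DESeq2 but not by edgeR (log2 change -0.24 ± 0.07, edgeR adjusted p = 0.0535).

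From triose phosphate to pyruvate, Tpi1, Pkm and Eno1 were lower and Eno3 was higher with Sry. Tpi1 (chromosome 6, 124810586 to 124814296), the enzyme that interconverts the triose phosphates, was at 824, 808 and 888 CPM for XX, 792, 886 and 772 for XY-, 676, 677 and 737 for XXSry and 652, 567 and 679 for XY-Sry. No library with Sry reached the lowest library without it (log2 change -0.32 ± 0.05, edgeR adjusted p = 0.00338). Pkm (chromosome 9, 59656368 to 59679375) was at 2186, 2203 and 1917 CPM for XX, 2038, 2282 and 2018 for XY-, 1754, 1843 and 1979.7 for XXSry and 1802, 1602 and 1805 for XY-Sry. XXSry replicate 3 lay above XX replicate 3, and the other libraries with Sry lay below all libraries without it (log2 change -0.23 ± 0.05, edgeR adjusted p = 0.0206).

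The enolase genes went in opposite directions. Eno1, alpha-enolase, was at 167, 172 and 136 CPM for XX, 168, 179 and 165 for XY-, 134, 146 and 139 for XXSry and 135, 135 and 148 for XY-Sry, with XX replicate 3 low for its group (log2 change -0.24 ± 0.06, edgeR adjusted p = 0.0218). Eno3 (chromosome 11, 70657202 to 70662513), beta-enolase, best known from muscle, was at 60.8, 62.3 and 53.7 CPM for XX, 77.2, 56.6 and 77.5 for XY-, 93.9, 88.1 and 73.2 for XXSry and 103, 108 and 95.2 for XY-Sry. XY-Sry was highest, XXSry replicate 3 lay just under the higher XY- libraries, and the groups overlapped through that library (log2 change 0.53 ± 0.08, edgeR adjusted p = 0.00219). Of the summed enolase level per length, Eno3 held 53.6% ± 1.27 in XX and 65.2% ± 3.24 in XXSry, 55.8% ± 5.54 in XY- and 69.4% ± 2.46 in XY-Sry (mean and SD, n = 3). Reads given to Eno1b, whose transcript is 99.5% identical to that of Eno1 over 1736 bases, are not in the Eno1 level. Eno1b held 14509 counts beside 27197 for Eno1, so the Eno1 level and the enolase shares are uncertain.

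Pgk1, Gapdh and Pgam1 were not called. Gapdh was at 21.5, 16.95 and 18.6 CPM for XX, 21.7, 20.05 and 24.7 for XY-, 18.96, 20.2 and 20.2 for XXSry and 19.1, 19.6 and 19.7 for XY-Sry (log2 change -0.07 ± 0.07, edgeR adjusted p = 0.65). The table gave it 3604 counts in all libraries together, while 115 near-identical copies held 47637, and Gm13394 alone, 99.9% identical over 1000 bases, held 43809. Summed with its copies, Gapdh was lower with Sry (log2 change -0.33 ± 0.06, edgeR adjusted p = 0.00661), and Gm13394 was lower on its own (log2 change -0.36 ± 0.07, edgeR adjusted p = 0.00614). Pgam1 had 735 counts in all (log2 change 0.21 ± 0.15, edgeR adjusted p = 0.437), and its value and that of Gapdh are uncertain.

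At the lactate end, edgeR called Slc16a3 lower with Sry and none of the other 3 genes, while DESeq2 also called Ldha. Slc16a3 (chromosome 11, 120948480 to 120960868) encodes MCT4, a lactate exporter of glycolytic cells, and was at 265, 272 and 236 CPM for XX, 232, 283 and 228 for XY-, 184, 199 and 239 for XXSry and 172, 122 and 168 for XY-Sry. XY-Sry was lowest and XXSry replicate 3 lay within the range without Sry (log2 change -0.50 ± 0.09, edgeR adjusted p = 0.00535). Ldha was at 1984, 1891 and 1853 CPM for XX, 1985, 2004 and 1933 for XY-, 1824, 1762 and 1764 for XXSry and 1831, 1678 and 1806 for XY-Sry, and every library with Sry lay below every library without it, yet it missed the threshold in edgeR (log2 change -0.13 ± 0.04, edgeR adjusted p = 0.059). Slc2a1, Tpi1 and Ldha were the only members whose libraries with and without Sry did not overlap. The share of all genes tested without such overlap was not computed. Neither Ldhb (log2 change 0.16 ± 0.06, edgeR adjusted p = 0.139) nor Slc16a1, the transporter MCT1 (log2 change 0.00 ± 0.08, edgeR adjusted p = 1.00), was called. Of the summed level per length of both transporters, Slc16a3 held 50.6% ± 3.32, 48.7% ± 5.75, 45.5% ± 7.15 and 36.6% ± 5.25 for XX, XY-, XXSry and XY-Sry.

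**Figure D4:**
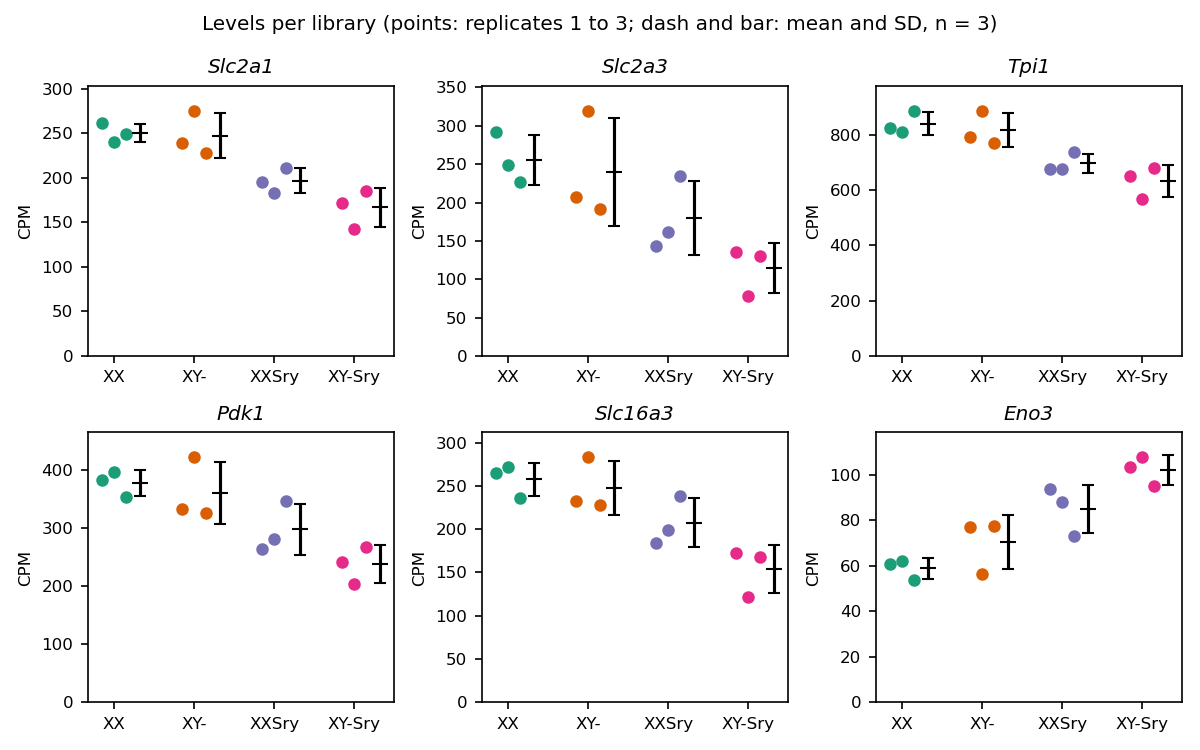
CPM of selected genes per library in the 4 groups, with points for replicates 1 to 3 and a dash and bar for the mean and SD (n = 3). Slc2a1 and Tpi1 show no overlap between libraries with and without Sry, and Eno3 lies highest in XY-Sry.

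At pyruvate dehydrogenase, the kinase gene Pdk1 was lower and the genes of the enzyme itself were not called. Of its other kinase genes, Pdk2 (group means of 2.33 to 3.96 CPM) and Pdk3 (53.6 to 58.5 CPM) were not called, and Pdk4 was not tested. Pdk1 (chromosome 2, 71873224 to 71903858) encodes a kinase that inactivates pyruvate dehydrogenase, and was at 382, 398 and 354 CPM for XX, 333, 423 and 326 for XY-, 265, 281 and 348 for XXSry and 242, 203 and 268 for XY-Sry. XY-Sry was lowest, and XXSry replicate 3 lay within the range without Sry (log2 change -0.47 ± 0.08, edgeR adjusted p = 0.0053). The dehydrogenase subunits Pdha1, Pdhb, Dlat and Dld showed log2 changes of -0.05 ± 0.03, 0.02 ± 0.05, 0.07 ± 0.06 and -0.01 ± 0.04, with edgeR adjusted p of 0.431, 0.884, 0.547 and 0.881.

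In the TCA cycle, edgeR called Ogdh and DESeq2 called Ogdh and Mdh2. Ogdh (chromosome 11, 6291633 to 6356642), a subunit of the oxoglutarate dehydrogenase complex, was at 247, 236 and 258 CPM for XX, 254, 242 and 279 for XY-, 289.6, 282 and 258 for XXSry and 289, 291 and 289.8 for XY-Sry. The change was small, and XXSry replicate 3 lay within the range without Sry (log2 change 0.16 ± 0.04, edgeR adjusted p = 0.0411). The 14 others had log2 changes from -0.07 to 0.14, among them Sdhd, which encodes a succinate dehydrogenase subunit (0.14 ± 0.05, edgeR adjusted p = 0.108), the malate dehydrogenase gene Mdh2 (0.13 ± 0.04, edgeR adjusted p = 0.0822) and the citrate synthase gene Cs (0.04 ± 0.03, edgeR adjusted p = 0.548). In the pentose phosphate pathway, G6pdx, which makes its first NADPH, had a log2 change of 0.09 ± 0.05, Pgd one of -0.10 ± 0.04, Tkt one of 0.06 ± 0.03 and Taldo1, the transaldolase, one of 0.02 ± 0.05.

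Within XX, comparing XXSry with XX, edgeR called none of the 45 members, while 16 had an unadjusted p under 0.05 and DESeq2 called 4. The 16 were 35.6% of the members, against 14.0% of all genes at that unadjusted threshold. Of all genes, edgeR called 0.453%, 0.199% higher and 0.254% lower. The lowest adjusted p was 0.0594, for Eno3. Within XY-, comparing XY-Sry with XY-, edgeR called 6 members, 5 lower and 1 higher, and DESeq2 called 12, against 0.679% of all genes by edgeR (0.110% higher and 0.569% lower). The lower genes were Slc2a1 (log2 change -0.57 ± 0.09, edgeR adjusted p = 0.0132), Slc2a3 (-1.06 ± 0.23, 0.0461), Tpi1 (-0.37 ± 0.07, 0.0362), Slc16a3 (-0.69 ± 0.13, 0.0292) and Pdk1 (-0.60 ± 0.12, 0.0341), and Eno3 was higher (0.53 ± 0.11, 0.046). No member stayed called in this comparison without XY- replicate 2, without XY-Sry replicate 1 or without XY-Sry replicate 2. With a mean of at least 50 reads as the filter, Slc2a3 and Eno3 lost their calls in this comparison.

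All 13 genes lower in the mean comparison had negative estimates in both XX and XY- cells. They were chosen by the mean of these same estimates, which favours agreement in sign. For Slc2a3 the log2 change was -0.51 ± 0.22 in XX and -1.06 ± 0.23 in XY-, and for Aldoc -0.56 ± 0.29 and -1.24 ± 0.31. For Slc2a1 it was -0.35 ± 0.09 and -0.57 ± 0.09. The estimate was larger in size in XY- for all 13, but the interaction, which tests that difference, called none of the 45 by edgeR or by DESeq2, with 1 at an unadjusted p under 0.05, and 0% of all genes by edgeR. At that unadjusted threshold were 2.22% of the members and 2.64% of all genes. Over the 15 called members the interaction (the Sry difference in XX minus that in XY-) had log2 estimates from -0.01 to 0.68. A difference in the Sry effect between XX and XY- cells was therefore not detected at 3 libraries per group.

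**Figure D5:**
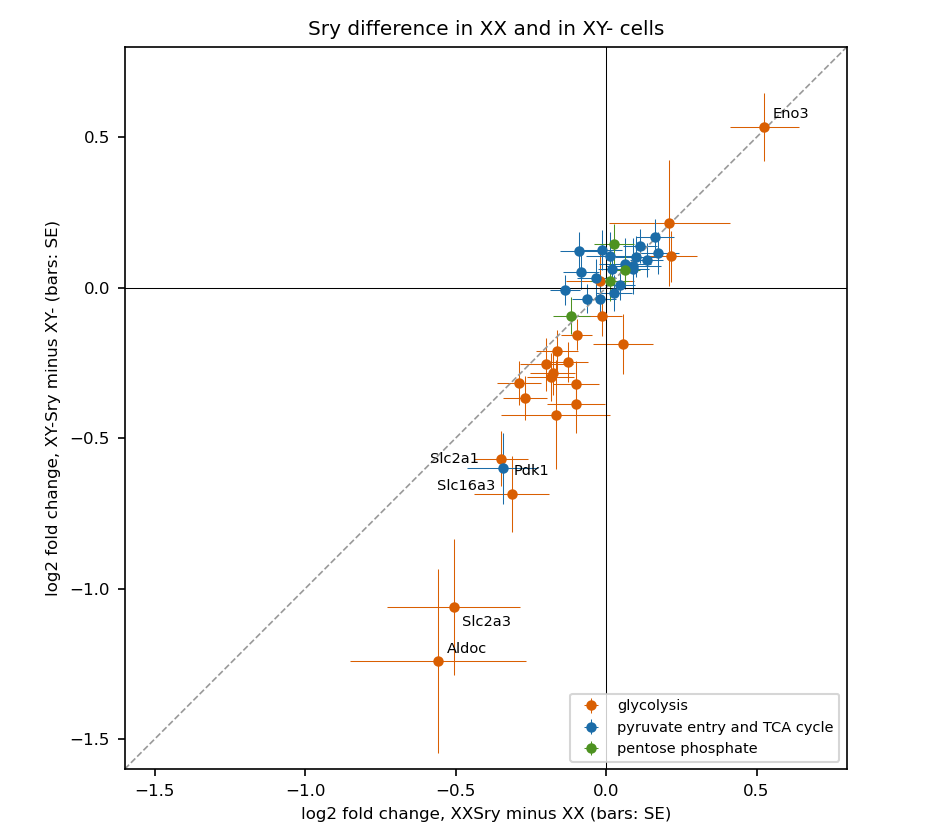
Log2 fold change with Sry in XY- cells against that in XX cells for the 45 genes, with standard errors. The 13 genes called lower in the mean comparison lie in the lower left, and Eno3 and Ogdh in the upper right.

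The sex chromosome comparisons gave no call among the members. Comparing XX with XY-, XXSry with XY-Sry and the mean of both, edgeR and DESeq2 called 0 of 45 each time. In that order, 2, 9 and 11 of the 45 members had an unadjusted p under 0.05. The same unadjusted threshold was met by 6.37%, 10.4% and 14.2% of all genes. Of all genes edgeR called 0.103% (0.0754% higher and 0.0274% lower), 0.103% (0.0754% higher and 0.0274% lower) and 0.137% (0.0960% higher and 0.0411% lower). In the XXSry and XY-Sry comparison 19 of the 21 glycolysis genes had a positive estimate, higher in XXSry, with a median of 0.11, and in the XX and XY- comparison 9 of 21 did. The largest in size among the transporters was Slc2a3, with 0.65 ± 0.23 between XXSry and XY-Sry (edgeR adjusted p = 0.452) and 0.10 ± 0.22 between XX and XY- (edgeR adjusted p = 0.951).

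The 3 X-linked members did not pass the test for the sex chromosomes. Pgk1, phosphoglycerate kinase (chromosome X, 106187100 to 106203699), was at 46.3, 53.2 and 25.4 CPM for XX, 46.5, 41.3 and 41.6 for XY-, 37.4, 39.3 and 35.8 for XXSry and 30.2, 28.99 and 37.6 for XY-Sry. XX replicate 3 was the lowest library and the other XX libraries were at or near the top (mean log2 change 0.09 ± 0.13, XX minus XY-, edgeR adjusted p = 0.771). Its copies Pgk1-rs7 and Gm5537, 100% identical over 1255 and 1252 bases, held 0 counts. How reads matching several genes were counted is not given, so the Pgk1 values are uncertain. Pdha1, the catalytic subunit gene of pyruvate dehydrogenase (chromosome X, 160122209 to 160138413), was at 334, 313 and 329 CPM for XX, 321, 325 and 321 for XY-, 317, 318 and 299 for XXSry and 309, 318 and 315 for XY-Sry, and the libraries of XX overlapped those of XY-, and those of XXSry those of XY-Sry (-0.00 ± 0.03, edgeR adjusted p = 1.00). G6pdx (chromosome X, 74409483 to 74429194) was at 126, 116 and 139 CPM for XX, 121, 107 and 118 for XY-, 129, 132 and 125 for XXSry and 131, 127 and 124 for XY-Sry. XX replicate 3 was its highest library and XY- replicate 2 its lowest (0.08 ± 0.05, edgeR adjusted p = 0.463).

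Of 55 other genes of these pathways, 42 were tested and 7 were called in the mean Sry comparison, 6 lower and 1 higher, where 5.44% of all genes were called, 3.31% lower and 2.13% higher. Pcx, pyruvate carboxylase, which feeds the TCA cycle with oxaloacetate, was at 28.1, 36.2 and 26.96 CPM for XX, 23.1, 37.3 and 30.5 for XY-, 18.03, 20.8 and 21.5 for XXSry and 17.6, 17.9 and 18.3 for XY-Sry, without overlap between libraries with and without Sry (log2 change -0.68 ± 0.11, edgeR adjusted p = 0.00262). Bsg, which encodes basigin, a chaperone of the lactate transporters, was at 303, 302 and 282 CPM for XX, 308, 311 and 288 for XY-, 263, 253 and 274 for XXSry and 249.7, 243 and 263 for XY-Sry, again without overlap (log2 change -0.22 ± 0.04, edgeR adjusted p = 0.00635). Eno2, the neuronal enolase, was lower (log2 change -0.82 ± 0.19, edgeR adjusted p = 0.0236), as were Pgm1, a phosphoglucomutase (log2 change -0.34 ± 0.07, edgeR adjusted p = 0.00972), Pfkfb3, which makes an activator of phosphofructokinase (log2 change -0.23 ± 0.06, edgeR adjusted p = 0.0316), and the mitochondrial malic enzyme Me2 (log2 change -0.22 ± 0.05, edgeR adjusted p = 0.0289). Bpgm, which makes 2,3-bisphosphoglycerate, was higher (log2 change 0.20 ± 0.06, edgeR adjusted p = 0.0497). Of the 8 other pentose phosphate genes tested, edgeR and DESeq2 called 0, with 3 at an unadjusted p under 0.05. Within XY- cells, Pcx, Bsg and Pgm1 were lower, where 0.679% of all genes were called.

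Some of these counts are uncertain by construction. Eno1 lost its call when its copies were summed with it (log2 change -0.19 ± 0.06, edgeR adjusted p = 0.0862), and Gpi1 kept it (log2 change -0.18 ± 0.05, edgeR adjusted p = 0.0491), its copy Gm1840 holding 57071 counts beside 72263 for Gpi1. Exon bases were shared with another gene by 13 members, 12 of them with a gene on the opposite strand, and whether counting used strand is not given in the sources used. The longest overlaps were 748 bases of Pfkp with Pitrm1, 741 of Gpi1 with Gm26762, 603 of Pdha1 with Map3k15 and 418 of G6pdx with Ikbkg. Among the 15 called members, Slc2a1, Slc2a3, Pfkp, Tpi1, Eno3, Slc16a3 and Pdk1 were called in all 12 fits that left out 1 library, and the other 8 were lost in at least 1. Hk2, Gpi1 and Ogdh were lost in 9, Pfkl in 8, Aldoa in 7 and Aldoc, Eno1 and Pkm in 4, for each of them also without XY- replicate 2 and without XY-Sry replicate 2, with adjusted p rising at most to 0.119 (Hk2). Without XX replicate 3, 16 members and 5.04% of all genes were called, with Hk2 and Gpi1 lost and Ldha, Pfkm and Pgk1 gained.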

How the data were processed

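The authors deposited whole-number read counts for mouse genes under Ensembl identifiers, with a column for each library, per the file headers. The submitters' processing notes name bcl2fastq 2.17, a program that converts base calls, and the build mm10. How reads were aligned and counted, with which annotation and whether by strand, is not given in the sources used. Of 39017 identifiers, 37693 matched GENCODE M21, and the other 1324 held 0.597% of counts and stayed in the tests.

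From these counts, edgeR 4.0.16 in R 4.3.3 fitted 1 term per group over all 12 libraries, with TMM factors, filterByExpr (minimum count 10, minimum total 15) and tested with its quasi-likelihood F-test. This kept 14585 genes. Benjamini-Hochberg adjustment ran over all of them in each of 7 comparisons, with calls at adjusted p under 0.05. Standard errors were derived from the F statistic. CPM uses TMM-scaled library sizes, and FPKM divides it by the union of a gene's exons, which overstates transcript length. Near-identical copies were found with blastn 2.17.0+ (at least 95% identity over at least 200 bases). The steps were tested on simulated data.

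The members and gene lists were chosen with earlier results of these data known. All 45 members may be named, with values per library for the called and X-linked ones, and of the other pathway genes those called. Alternatives were DESeq2 1.42.0, DESeq2 size factors, total counts, no filter, a mean of at least 50 reads, only the groups compared, a block for replicate number, summed copies and each library left out. All 12 within-group pairs of libraries differed beyond sampling noise (chi-square over degrees of freedom from 2.47 to 18.0), so none was treated as a duplicate. Totals per library ran from 11664186 to 16710188.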

Additional observations from a re-analysis of the deposited data

How the results depend on the processing

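None of the 21 called results for single members changed sign under the alternatives run. The median over members, close to 0, did so without XXSry replicate 3, from -0.01 to 0.01 in the mean Sry comparison, from -0.02 to 0.01 for XXSry against XX and from -0.00 to 0.01 for XXSry against XY-Sry, and in the last also without XY-Sry replicate 3 (0.00). Gapdh, not called, changed sign with its copies summed, from -0.22 to 0.21 for XX against XY-, from -0.10 to 0.17 in the mean sex chromosome comparison, from 0.06 to -0.37 for XXSry against XX and from 0.24 to -0.08 in the interaction. The mean Sry comparison called 15 members, 15 to 18 under the other settings that kept all libraries, and 7 to 16 with 1 library left out. It called 7 without XY- replicate 2 or XY-Sry replicate 2, 8 without XXSry replicate 2 or XY-Sry replicate 1, and 9 without XXSry replicate 1. Of all genes, 2.42% to 2.93% were called in those fits and 5.44% in the main fit. Comparing XY-Sry with XY-, the count was 6, and 15 with no low-count filter, 12 with DESeq2, 14 with only the groups compared, 4 with a mean of at least 50 reads and 0 to 8 with 1 library left out. Comparing XXSry with XX, it was 0, and 8 with no filter, 4 with DESeq2 and 0 to 1 with 1 library left out. The XXSry and XY-Sry comparison gave 5 with no filter, the mean sex chromosome comparison 6 with no filter and 0 to 1 with 1 library left out, and the interaction 2 with no filter. In the comparison of XX with XY- the count stayed at 0 in every setting run. The cause of these shifts was not tested.

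Replicate numbers did not pair the libraries. Same-numbered libraries had correlations of -0.16 to 0.23, over 0.1 in 5 of 18 pairs, and 4 of 12 libraries correlated best with their own number. With the replicate number as a block the mean Sry comparison called 16 members, the main 15 and Pfkm, and XXSry against XX called 1. XY-Sry against XY- called 5, Slc2a3 having lost its call.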

Other observations

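Where a step has several genes, each gene holds a share of the summed level per exon length. Slc2a1 held 67.01% ± 2.29 of the summed glucose transporter level for XX, 68.5% ± 3.92 for XY-, 69.6% ± 4.39 for XXSry and 75.4% ± 3.50 for XY-Sry (mean and SD, n = 3). Hk2 held 51.1% ± 2.61, 52.2% ± 2.08, 47.9% ± 3.61 and 49.3% ± 1.45 of the summed hexokinase level in the same order of groups. Aldoa held 96.2% to 98.9% of the aldolase level and Ldha 96.1% to 97.4% of the lactate dehydrogenase level over the 12 libraries. Pfkm held 10.0% to 12.9% of the phosphofructokinase level, the rest being Pfkl and Pfkp. These shares were not tested.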
